A study of Mus musculus with 20 samples.

Results

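The unfolded protein response and the folding machinery of the endoplasmic reticulum (ER) were followed through 10 genes in macrophages sorted from the mouse dura mater. The genes were taken by symbol from the table of raw counts. They comprised the chaperones Hspa5, Hsp90b1, Calr and Canx, the disulfide isomerases Pdia3, Pdia4 and Pdia6, the transcription factors Ddit3 and Xbp1, and Herpud1, a membrane protein of ER-associated degradation. All 10 were found among the 33243 symbols of the table, and all 10 were among the 16632 genes that passed the filter on low counts.

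Proteins bound for the surface or for secretion fold in the ER lumen, where Hspa5 (BiP) binds unfolded chains, calreticulin and calnexin hold glycoproteins, and disulfide isomerases set the disulfide bonds. When unfolded proteins accumulate, sensors in the membrane signal. ATF6 is cleaved to a transcription factor, IRE1 splices the Xbp1 transcript to a form that encodes an active factor, and PERK phosphorylates eIF2α, which favours the translation of ATF4 and the induction of Ddit3 (CHOP). Macrophages that are switched by bacterial products to the release of cytokines are known for using the IRE1 and XBP1 branch.

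Bulk RNA sequencing was done on macrophages of the cranial dura, termed dural CNS-associated macrophages (dCAMs), from adult Ccr2creERT2/+ R26tdT/tdT mice, in which tamoxifen turns on the red protein tdTomato (tdT) in cells that express Ccr2, a receptor of monocytes. All 10 mice, controls included, had been depleted of macrophages with BLZ945, an inhibitor of CSF1R, for 7 days at 200 mg per kg, and had received tamoxifen at 2 mg per day on the last of these days and again 2 and 4 days later, so that no undepleted group was compared here. After 8 weeks, 5 mice were given lipopolysaccharide (LPS) at 2.5 mg per kg and 5 were given PBS (CTL), and dura was taken 12 h later. The dCAM gate (CD45int CD11b+ CD206int-high) was split by tdT signal, which gave 1 library of each population from each mouse and 4 groups of 5 libraries. The tdT label records Ccr2 expression at the time of tamoxifen, and a tdT- cell may be a macrophage that survived depletion or a descendant of a cell that was not recombined. In what follows, values of single libraries are listed in the order of mice 174, 175, 177, 178 and 179 (CTL) and 54, 56, 59, 60 and 61 (LPS), in CPM (counts per 1e6 counts of the library after TMM scaling).

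Sequences upstream of the genes were examined because several of these promoters carry the ER stress response element (ERSE), which is bound by ATF6 together with NF-Y. RefSeq (GRCm38.p6) windows from 250 bases before to 50 bases after the start were found for all 10 genes. The exact ERSE, which is CCAAT and CCACG with 9 bases of any kind between them, searched on both strands, was present in 5 of the 10 windows and in 0.119% of all 32851 windows of the same length. Written in the orientation of the motif, with its fixed letters in capitals, the 6 matches read as follows.

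Hspa5: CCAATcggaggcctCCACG

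Hsp90b1 upstream match: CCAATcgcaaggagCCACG

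Hsp90b1 downstream match: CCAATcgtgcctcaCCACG

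Calr: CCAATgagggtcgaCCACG

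Canx: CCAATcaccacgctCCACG

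Pdia6: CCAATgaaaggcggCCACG

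Herpud1 lacked the exact ERSE in this window but held the related ERSE-II, which is ATTGG, any base and then CCACG, which was present in 0.0365% of windows, and TTGCATCA, an element of the ATF4 and CHOP type, which was present in 0.895% of windows. Among the 10 genes both were found in Herpud1 alone. The element TGACGTGG (UPRE, a site of the XBP1 type) was in 0 of the 10 windows and in 0.676% of all windows. No exact copy of these 4 motifs was found in the windows of Pdia3, Pdia4, Ddit3 and Xbp1. ERSE and ERSE-II each contain the CCAAT box, which was found in 9 of the 10 windows and in 37.4% of all windows. The 250 bases upstream of Herpud1, Hspa5 and Hsp90b1 are shown because these genes fell, rose and stayed within the spread under LPS, respectively. Capitals mark the matches in the direction of transcription.

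Herpud1 (chr8:94386179-94386428, plus strand): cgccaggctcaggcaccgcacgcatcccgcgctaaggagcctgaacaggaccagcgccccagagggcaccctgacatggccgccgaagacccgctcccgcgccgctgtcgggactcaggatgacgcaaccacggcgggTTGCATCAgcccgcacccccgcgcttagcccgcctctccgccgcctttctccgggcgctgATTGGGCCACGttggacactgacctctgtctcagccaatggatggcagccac

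Hspa5 (chr2:34771840-34772089, plus strand): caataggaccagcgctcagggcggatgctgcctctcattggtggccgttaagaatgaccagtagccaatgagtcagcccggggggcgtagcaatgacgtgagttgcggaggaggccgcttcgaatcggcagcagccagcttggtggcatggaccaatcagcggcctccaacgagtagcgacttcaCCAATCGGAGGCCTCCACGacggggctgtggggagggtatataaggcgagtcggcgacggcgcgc

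Hsp90b1 (chr10:86705445-86705694, minus strand): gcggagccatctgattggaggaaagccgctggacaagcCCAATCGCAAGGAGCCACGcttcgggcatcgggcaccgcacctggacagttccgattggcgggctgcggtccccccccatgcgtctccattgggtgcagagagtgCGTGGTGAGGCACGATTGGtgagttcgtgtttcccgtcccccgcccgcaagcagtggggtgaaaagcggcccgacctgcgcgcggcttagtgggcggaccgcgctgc

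In Herpud1 the ATF4 and CHOP element lay 112 to 105 bases and the ERSE-II 52 to 42 bases before the start. The ERSE of Hspa5 lay 65 to 47 bases before the start, and Hsp90b1 had one copy at 212 to 194 bases and another, on the opposite strand, at 107 to 89 bases. In GRCm38 (GENCODE M21) the genes span chr8:94386438-94395377 (Herpud1, plus strand), chr2:34771970-34777547 (Hspa5, plus strand), chr10:86690209-86705509 (Hsp90b1, minus strand) and chr11:5520659-5525893 (Xbp1, plus strand). Positions before the start are counted from the RefSeq start. The GENCODE spans of Hspa5 and Hsp90b1 begin further upstream, so that part of their printed bases lies inside those spans. The ERSE of Hspa5 is in that part. A match describes letters in the sequence and was not tested for binding.

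The libraries held 6017650 to 12208203 counts in CTL mice and 12073566 to 18925908 in LPS mice. Genes with at least 10 counts numbered 6671 to 9365 in the tdT- CTL libraries and 10024 to 11987 in the libraries of the other 3 groups. The macrophage genes Mrc1, Csf1r, Adgre1, Cd68, Itgam, Ptprc, C1qa, C1qb, C1qc and Fcgr1 were detected throughout, with a summed level of 10855 to 33016 CPM. The tdT- CTL libraries of mice 174 and 179 stood apart. That of mouse 174 had the fewest genes and 16 counts of Ddit3, and that of mouse 179 carried 4668 CPM of 6 fibroblast markers, against a median of 315 CPM in its group and at most 415 CPM in any library of the other 3 groups. Results that rest on them are given below without them.

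Per kilobase of exon (GENCODE M21), Hspa5 was the most abundant of the 10 genes in all 4 groups, with 367 ± 84.2 CPM per kb in tdT- CTL dCAMs (SD, n = 5) and 389 ± 68.4 in tdT+ CTL dCAMs. Pdia3 followed in every group, and its range overlapped that of Hspa5 in every group. Calr had rank 3 and Ddit3 rank 10. Herpud1 had rank 4 in both CTL groups, at 180.5 ± 39.4 CPM per kb in tdT- and 163 ± 34.0 in tdT+ dCAMs, and rank 9 in both LPS groups, at 64.2 ± 7.10 and 65.6 ± 7.33. Xbp1 made the opposite move in this order, from rank 8 in both CTL groups to rank 4 in both LPS groups. In CTL libraries most neighbours in the order overlapped, with the exceptions of Calr over Herpud1 and Pdia4 over Ddit3 in tdT+ dCAMs. In both LPS groups Calr stood above Xbp1, Pdia4 above Herpud1 and Herpud1 above Ddit3 without overlap.

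The comparison of LPS with CTL mice asked how the repopulated macrophages of each population respond to a systemic inflammatory stimulus. Herpud1 fell and Xbp1 and Hspa5 rose after LPS in both populations, and Calr and Pdia6 rose past the threshold on the adjusted p in tdT- dCAMs. Herpud1 went from a mean of 421 CPM to 149.9 CPM in the tdT- population and from 381 to 153 CPM in the tdT+ population. Xbp1 was 2.58-fold higher in tdT- and 1.99-fold higher in tdT+ dCAMs, while Hspa5 was 1.48-fold and 1.53-fold higher. In bulk libraries a change in the share of a cell type and a change in RNA per cell cannot be told apart.

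**Figure D1:**
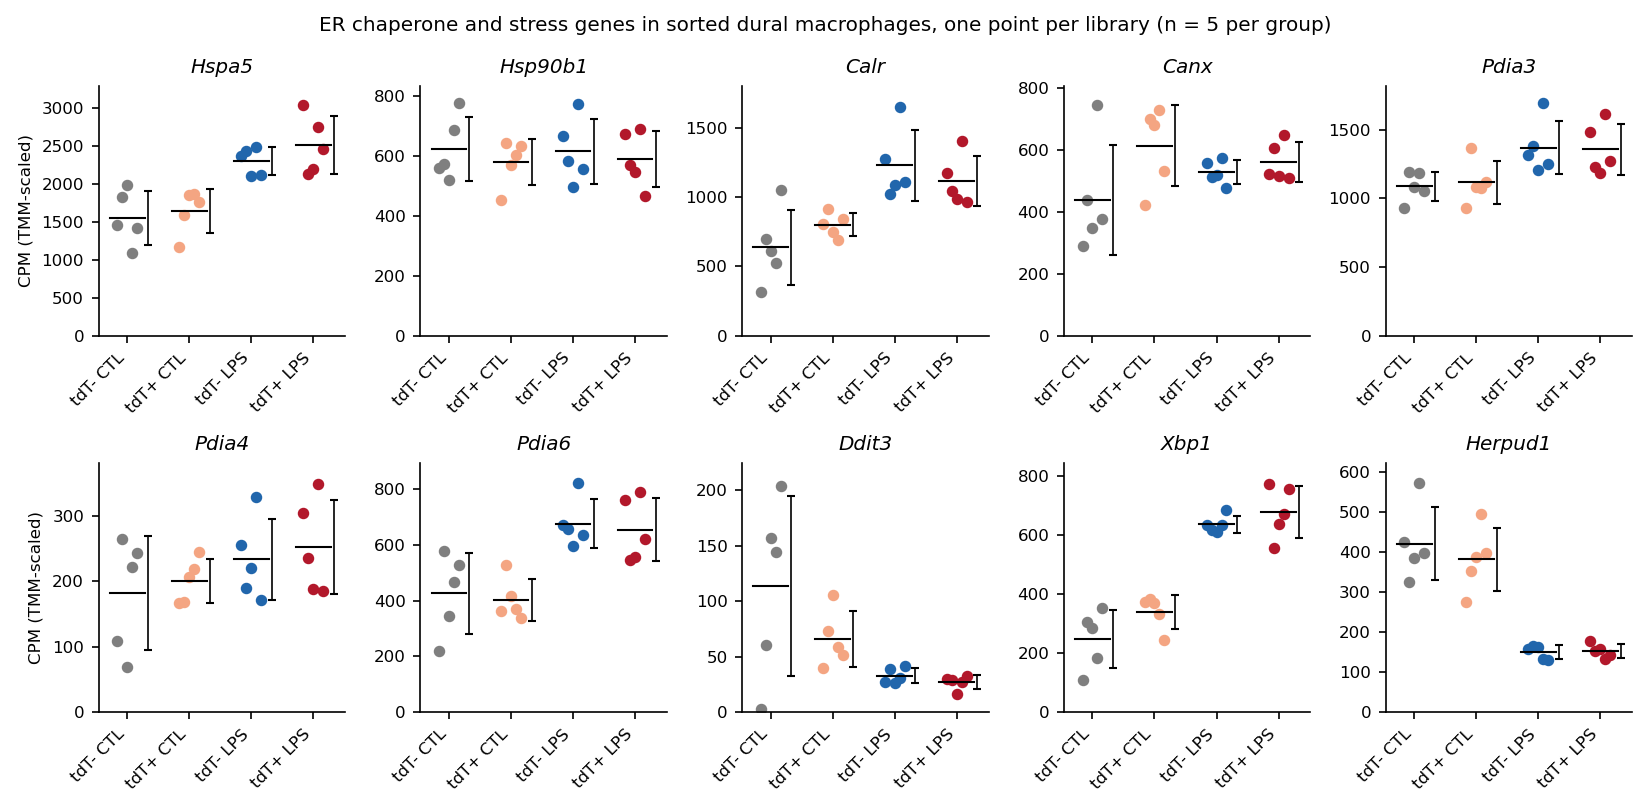
Level of each of the 10 genes in every library (vertical axis: CPM after TMM scaling, from 0; horizontal axis: the 4 groups of 5 libraries). Points are libraries, bars are means and error bars are SD. Herpud1 sits at 131 to 178 CPM in the 10 LPS libraries and at 276 to 572 CPM in the 10 CTL libraries, Xbp1 shows the reverse order, and Hsp90b1 lies at about the same height in all groups.

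With both thresholds of the study (a log2 fold change beyond 1 in either direction, at an adjusted p below 0.05), 2 of the 10 genes were called in tdT- dCAMs (Xbp1 higher, Herpud1 lower), against 11.5% of all genes tested, and 1 of 10 in tdT+ dCAMs (Herpud1 lower), against 5.89%. With the adjusted p alone, which suits abundant genes that move by small folds, 4 genes were higher and 1 lower in tdT- dCAMs, where 7.67% of all genes were higher and 4.85% lower. In tdT+ dCAMs 2 genes were higher and 1 lower by the same rule, with 3.79% and 2.83% of all genes. Among genes whose mean log2 CPM reached 4, a level that all 10 exceeded, 16.7% (tdT-) and 11.8% (tdT+) passed the adjusted p. The median log2 fold change of the 10 genes was 0.35 in tdT- and 0.31 in tdT+ dCAMs, beside 0.02 and 0.01 over all genes tested. Over the genes whose mean log2 CPM reached 4 it was 0.005 and 0.117. Without regard to a test, 4 genes were higher and 1 lower without overlap between the groups in tdT- dCAMs, where this held for 9.32% and 3.31% of all genes. In tdT+ dCAMs 4 genes were higher and 2 lower, against 10.6% and 7.19% of all genes. These shares were larger among the 7295 genes whose mean log2 CPM reached 4. Of those, 799 were higher and 442 lower without overlap in tdT- dCAMs. In tdT+ dCAMs 1346 were higher and 950 lower, which is 31.5% in either direction. The summed level of the 10 genes was 4403 to 6406 CPM in tdT- CTL and 4990 to 6722 CPM in tdT+ CTL libraries. It reached 7026 to 9129 CPM in tdT- LPS and 6985 to 9088 CPM in tdT+ LPS libraries, so that the sums did not overlap between treatments.

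Hspa5 encodes the most abundant Hsp70 of the ER lumen and holds the sensors inactive while it is bound to them. In tdT- dCAMs it was at 1449, 1826, 1978, 1080.1 and 1421 CPM in CTL mice and at 2367, 2435, 2098, 2485 and 2107 CPM in LPS mice. In tdT+ dCAMs the values were 1162, 1592, 1845, 1857 and 1761 CPM in CTL mice and 3030.2, 2120.2, 2194, 2749.7 and 2460.5 CPM in LPS mice. Every LPS library was above every CTL library in both populations. The log2 fold change was 0.57 ± 0.16 (SE, edgeR adjusted p = 0.0195) in tdT- and 0.61 ± 0.16 (edgeR adjusted p = 0.0182) in tdT+ dCAMs. In limma-voom with mouse as a replicate block, which uses that both populations came from the same animals, Hspa5 did not pass in either population (log2 fold changes 0.56 and 0.53, adjusted p = 0.122 and 0.0927). That setting also changed the tool from edgeR to limma-voom, and the part of each was not tested. The call of Hspa5 was also lost without LPS mouse 56 or 60 in tdT- dCAMs, and without CTL mouse 174 or 175 or LPS mouse 54 or 60 in tdT+ dCAMs.

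Hsp90b1 encodes Grp94, the Hsp90 of the ER lumen, which folds Toll-like receptors and integrins. It ranged from 521 to 778 CPM in tdT- CTL and from 495 to 775 CPM in tdT- LPS libraries. In the tdT+ population it ranged from 452 to 642 CPM in CTL and from 465 to 689.6 CPM in LPS libraries. The groups overlapped almost fully. LPS over CTL gave a log2 fold change of -0.02 (95% interval -0.36 to 0.33) in tdT- and 0.02 (-0.32 to 0.37) in tdT+ dCAMs, so that a rise of the size estimated for Xbp1 lay outside both intervals. The ratio of Hspa5 to Hsp90b1 counts within a library, which does not depend on scaling, had a median of 2.59 in tdT- CTL and 3.78 in tdT- LPS libraries with overlap, and ran from 2.48 to 3.24 in tdT+ CTL and from 3.73 to 5.29 in tdT+ LPS libraries without overlap.

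Calr encodes calreticulin, the soluble lectin chaperone that also buffers ER calcium. It was at 312, 694, 613, 522 and 1053 CPM in the tdT- libraries of CTL mice and at 1276, 1023, 1091, 1651 and 1107 CPM in those of LPS mice. The library of mouse 179 overlapped the LPS group and the other 4 CTL libraries were below it. In tdT+ dCAMs Calr was at 809, 914, 751, 692 and 845 CPM in CTL mice and at 1173, 1048, 987, 1409 and 968 CPM in LPS mice, without overlap. For Calr the log2 fold change was 0.94 ± 0.23 (edgeR adjusted p = 0.00770) in tdT- dCAMs and 0.48 ± 0.23 (edgeR adjusted p = 0.245) in tdT+ dCAMs. Without the tdT- CTL library of mouse 179 the value in tdT- dCAMs was 1.20, and without that of mouse 174 it was 0.75, with both past the threshold on the adjusted p. A fit of the 10 tdT- libraries alone, and limma-voom with quality weights, did not call it (adjusted p = 0.0773 and 0.0954), while the like alternatives brought Calr past the threshold in tdT+ dCAMs (adjusted p = 0.0254 and 0.0443).

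Canx encodes calnexin, the membrane-bound partner of calreticulin in the same cycle. It ranged from 288 to 743 CPM in tdT- CTL and from 477 to 572 CPM in tdT- LPS libraries. It ranged from 421 to 727 CPM in tdT+ CTL and from 507 to 648 CPM in tdT+ LPS libraries. The LPS groups lay inside the CTL ranges, and the log2 fold changes were 0.27 ± 0.21 and -0.13 ± 0.21 (edgeR adjusted p = 0.418 and 0.868).

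**Figure D2:**
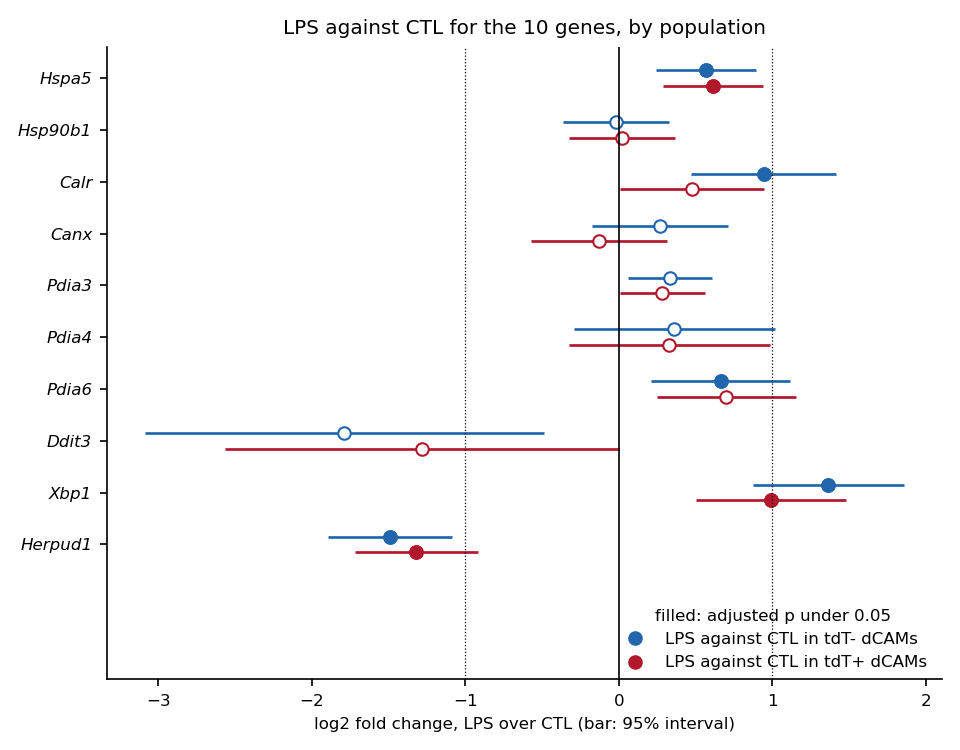
Log2 fold change of LPS over CTL for each gene with its 95% interval (horizontal axis), in tdT- (blue) and tdT+ (red) dCAMs. Filled points passed an adjusted p of 0.05 and dotted lines mark a log2 fold change of 1 in either direction. Herpud1 lies at -1.49 and -1.32, Xbp1 at 1.37 and 0.99, and the interval of Ddit3 is the widest.

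The 3 disulfide isomerases all had positive estimates in both populations. Pdia6, an isomerase that also acts on IRE1 and PERK, was at 220.3, 579.5, 344, 467 and 527 CPM in tdT- CTL and at 673, 658, 596, 824 and 635 CPM in tdT- LPS libraries. In tdT+ dCAMs it was at 362, 528, 418, 369.9 and 337 CPM in CTL and at 761, 545, 558, 790.0 and 622 CPM in LPS mice. The groups did not overlap in either population, although the highest CTL and the lowest LPS libraries were close. The log2 fold change was 0.66 ± 0.22 (edgeR adjusted p = 0.0489) in tdT- and 0.70 ± 0.22 (edgeR adjusted p = 0.0585) in tdT+ dCAMs, on either side of the threshold. In tdT- dCAMs 17 of 22 alternative settings no longer passed, and without the tdT- CTL library of mouse 174 the value was 0.48 (edgeR adjusted p = 0.0850). In tdT+ dCAMs 8 of 22 settings did pass, among them the replicate block (log2 fold change 0.71, adjusted p = 0.0169).

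Pdia3 (ERp57), the isomerase that works with calreticulin and calnexin and loads MHC class I, ranged from 928 to 1192 CPM in tdT- CTL and from 1207 to 1695 CPM in tdT- LPS libraries, without overlap. In tdT+ dCAMs the ranges of 929 to 1369 CPM and 1189 to 1619 CPM overlapped. Its log2 fold changes of 0.33 ± 0.13 and 0.28 ± 0.13 did not pass after adjustment (edgeR adjusted p = 0.101 and 0.237). Pdia4 (ERp72) varied more among CTL libraries, from 69.0 to 265 CPM in tdT- dCAMs, and its log2 fold changes were 0.36 ± 0.31 and 0.33 ± 0.31 (edgeR adjusted p = 0.467 and 0.679).

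Xbp1 encodes the factor that IRE1 activates by splicing. The table counts all transcripts of the gene together, so that spliced and unspliced forms were not separated. It was at 108, 304, 285, 183 and 352 CPM in tdT- CTL and at 635, 616, 610.0, 634 and 683 CPM in tdT- LPS libraries. In tdT+ dCAMs it was at 373, 383, 368, 332 and 244 CPM in CTL and at 771, 554, 636, 672 and 754 CPM in LPS mice. No CTL library reached the lowest LPS library, and the 5 tdT- LPS libraries were close to each other, with a coefficient of variation of 4.51%, against 40.1% in tdT- CTL libraries. For Xbp1 the log2 fold change was 1.37 ± 0.24 (edgeR adjusted p = 0.000453) in tdT- and 0.99 ± 0.23 (edgeR adjusted p = 0.00999) in tdT+ dCAMs. The latter value lay at the limit of the fold threshold, and it was 1.10 with the replicate block (adjusted p = 0.000141). Without LPS mouse 54 the adjusted p in tdT+ dCAMs was 0.0554. In tdT- dCAMs Xbp1 passed the adjusted p under all 22 settings.

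Ddit3 encodes CHOP, the factor at the end of the PERK and ATF4 branch. In the annotation used here 2 overlapping gene models on the same strand carry its symbol, and how the counting treated reads shared by them is not given in the sources used here. It was at 2.43, 60.5, 157, 144 and 204 CPM in tdT- CTL and at 26.7, 38.4, 26.4, 31.1 and 41.9 CPM in tdT- LPS libraries. In tdT+ dCAMs it was at 39.9, 73.0, 106, 58.4 and 51.3 CPM in CTL and at 30.2, 28.9, 16.3, 27.4 and 32.2 CPM in LPS mice. The LPS libraries were below every CTL library in tdT+ dCAMs, and in tdT- dCAMs they were below all CTL libraries but that of mouse 174. The log2 fold change was -1.79 ± 0.62 (edgeR adjusted p = 0.0648) in tdT- and -1.28 ± 0.62 (edgeR adjusted p = 0.255) in tdT+ dCAMs, so that Ddit3 did not pass in either. Without the tdT- CTL library of mouse 174 the values were -2.12 (edgeR adjusted p = 0.000486) and -1.31 (edgeR adjusted p = 0.0204) with SEs of 0.37 and 0.35, both past the threshold. The tdT+ value passed as well when only the 10 tdT+ libraries were fitted (adjusted p = 0.00645).

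Herpud1 encodes a ubiquitin-like ER membrane protein that organizes the HRD1 complex for degradation. It was at 425, 325, 384, 572 and 398 CPM in tdT- CTL and at 158, 165, 162, 133 and 131 CPM in tdT- LPS libraries. In tdT+ dCAMs it was at 276, 352, 388, 495 and 396 CPM in CTL and at 178, 154, 157, 133 and 143 CPM in LPS mice. All 10 LPS libraries were below all 10 CTL libraries. The log2 fold change was -1.49 ± 0.19 (edgeR adjusted p = 2.04e-05) in tdT- and -1.32 ± 0.19 (edgeR adjusted p = 8.30e-05) in tdT+ dCAMs, a level 2.81-fold and 2.49-fold lower. Herpud1 was called under all 22 settings in both populations, with log2 fold changes from -1.55 to -1.32 in tdT- and from -1.44 to -1.23 in tdT+ dCAMs.

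Ratios of counts within a library were formed for pairs chosen with their levels known, as a description that needs no scaling between libraries. The ratio of Hspa5 to Herpud1 was 1.89 to 5.61 in tdT- CTL and 3.76 to 4.75 in tdT+ CTL libraries. It was 12.9 to 18.7 in tdT- LPS and 13.8 to 20.7 in tdT+ LPS libraries. The ratio of Xbp1 to Herpud1 was at most 1.35 in every CTL library and at least 3.61 in every LPS library, and that of Pdia6 to Herpud1 was 0.518 to 1.78 in CTL and 3.55 to 6.21 in LPS libraries. Ratios to Ddit3 overlapped in tdT- dCAMs, with 6.95 to 597 in CTL and 50.3 to 88.6 in LPS libraries for Hspa5 and 1.27 to 44.5 and 16.0 to 23.7 for Xbp1. In tdT+ dCAMs they did not, with 17.5 to 34.3 in CTL and 73.4 to 135 in LPS libraries for Hspa5 and 3.48 to 9.35 and 19.2 to 39.0 for Xbp1.

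**Figure D3:**
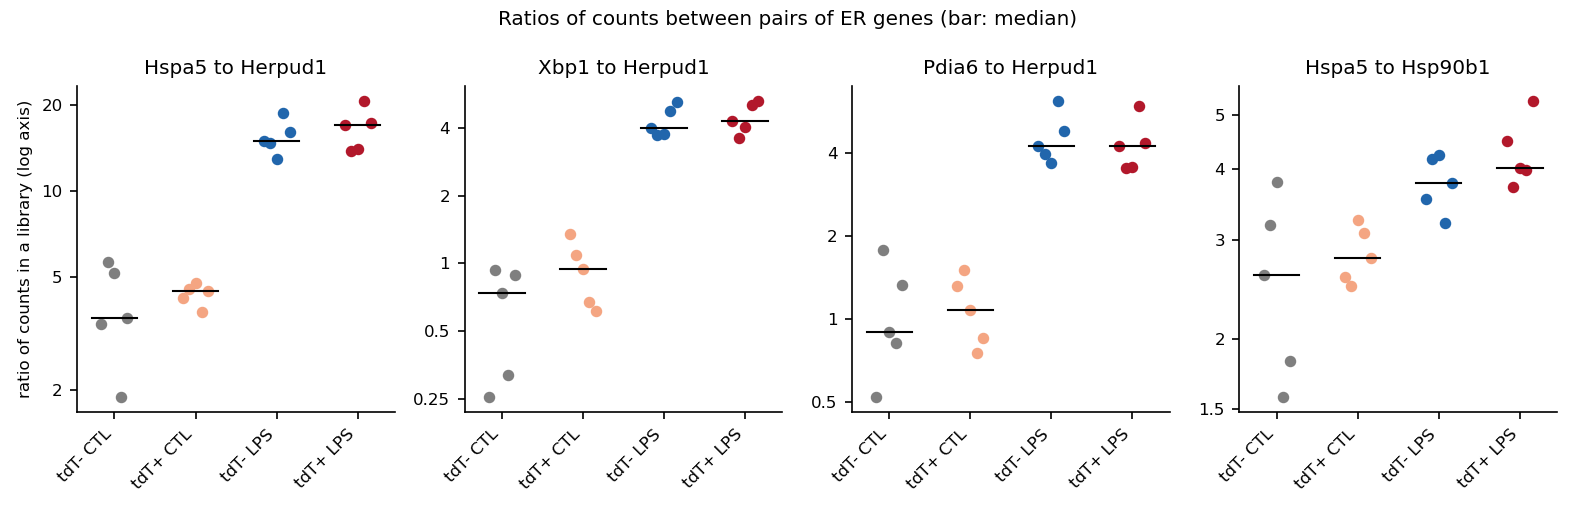
Ratio of the counts of 2 genes in the same library (vertical axis, logarithmic), by group (horizontal axis, 5 libraries each). Points are libraries and bars are medians. The ratios to Herpud1 separate all LPS from all CTL libraries, whereas Hspa5 to Hsp90b1 overlaps between tdT- CTL and tdT- LPS libraries.

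Comparison of tdT+ with tdT- dCAMs addressed whether macrophages with a history of Ccr2 expression differ from the others of the same dura. In CTL mice none of the 10 genes passed the adjusted p in edgeR, where 4.28% of all genes were called and 4.68% passed the adjusted p alone. That background rested on the joint fit, since the 712 genes called became 7 when only the 10 CTL libraries were fitted. At an unadjusted p under 0.05 there was 1 gene, Canx, and DESeq2, limma-voom with the replicate block and limma-voom with quality weights each gave 0. Canx was higher in tdT+ than in tdT- dCAMs in 4 of 5 CTL mice, with a log2 fold change of 0.48 ± 0.21 (SE, edgeR adjusted p = 0.179). Xbp1 was higher in 4 of 5 CTL mice as well, with 0.46 ± 0.23 (edgeR adjusted p = 0.235). Without CTL mouse 178, the exception for Canx, its value was 0.75 and passed (edgeR adjusted p = 0.0317). The interval was narrowest for Pdia3, at -0.24 to 0.31, and widest for Ddit3, at -2.06 to 0.48. No gene had the same sign in all 5 CTL mice, which held for 9.46% of all genes.

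In LPS mice none of the genes passed in edgeR either, where 0.0301% of all genes were called, and 0 of the 10 had an unadjusted p under 0.05 or passed in DESeq2 or limma-voom. The log2 fold changes of tdT+ over tdT- ran from -0.29 for Ddit3 to 0.13 for Hspa5. No gene had the same sign in all 5 LPS mice, which held for 9.90% of all genes. Herpud1, with a log2 fold change of 0.03 (95% interval -0.37 to 0.42), was at 149.9 ± 16.6 CPM in the tdT- and 153 ± 17.1 CPM in the tdT+ libraries (SD, n = 5).

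**Figure D4:**
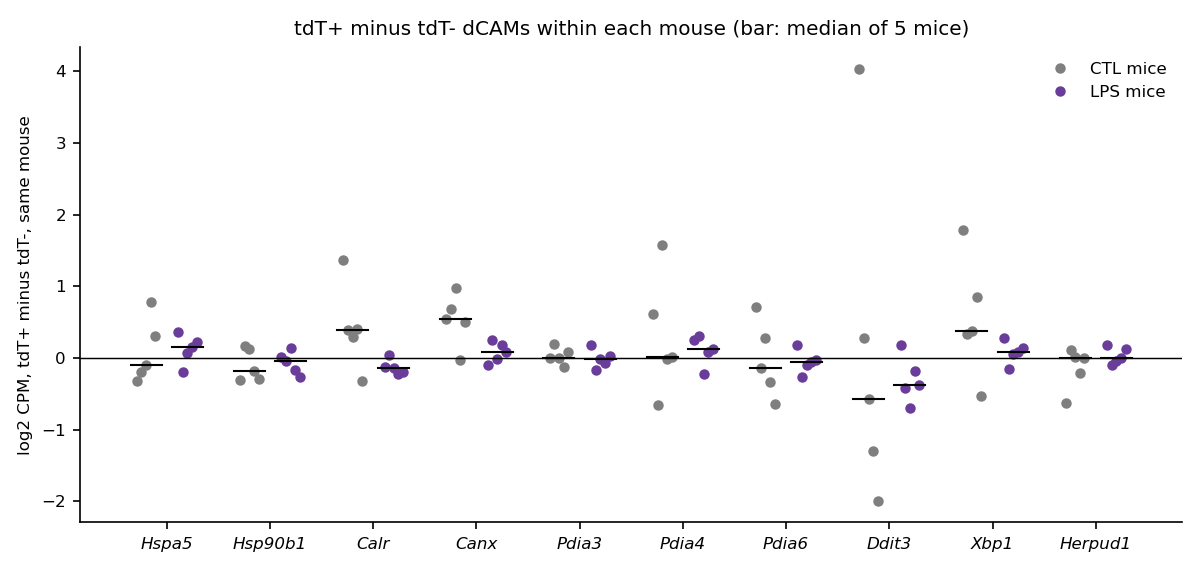
Difference in log2 CPM between the tdT+ and tdT- library of the same mouse (vertical axis) for each gene, in 5 CTL (grey) and 5 LPS (purple) mice. Points are mice and bars are medians. The point at 4.04 for Ddit3 is mouse 174, and all LPS points lie between -0.70 and 0.36.

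Whether LPS acted differently in tdT+ and tdT- dCAMs was tested as an interaction. None of the 10 genes passed in edgeR, against 1.26% of all genes called, and 0 had an unadjusted p under 0.05 or passed in DESeq2 or limma-voom. The largest differences, tdT+ minus tdT-, were 0.51 ± 0.86 for Ddit3, -0.47 ± 0.32 for Calr and -0.40 ± 0.30 for Canx. That Calr passed in tdT- and not in tdT+ dCAMs therefore did not amount to a tested difference (edgeR adjusted p = 0.648). For Xbp1 the difference was -0.37 with a 95% interval of -1.06 to 0.31, and for Herpud1 0.17 with an interval of -0.39 to 0.73.

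Other genes of the ER were counted by function with the adjusted p alone, in lists chosen with earlier results of these data known. Of 19 further folding factors, 3 rose and 1 fell in tdT- dCAMs, and 1 rose and 1 fell in tdT+ dCAMs. Manf, a secreted ER stress protein, was 2.01-fold higher in tdT- and 2.26-fold higher in tdT+ dCAMs (edgeR adjusted p = 0.00654 and 0.00248). In tdT- dCAMs P4hb, the prototype disulfide isomerase, and Dnajb11, a co-chaperone of Hspa5, rose with log2 fold changes of 1.57 ± 0.38 and 1.93 ± 0.57. Both did not pass in tdT+ dCAMs, although CTL and LPS libraries did not overlap there. In that population P4hb was at 464 to 601 CPM in CTL and 982 to 1195 CPM in LPS libraries. Dnajb11 was at 116 to 140 CPM and 211 to 277 CPM. The interaction passed for 0 of the 19 genes. Erp29 fell in both populations, with -1.08 and -0.95. The median over the 19 genes was 0.65 in tdT- and 0.46 in tdT+ dCAMs.

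Of 12 genes of ER-associated degradation, which excludes Herpud1, 2 rose in tdT- dCAMs (Selenos and Vcp, the ATPase that extracts substrates) and 1 in tdT+ dCAMs (Selenos), and none fell. In tdT+ dCAMs Vcp did not pass but was at 147 to 165 CPM in CTL and 214 to 251 CPM in LPS libraries, without overlap. Selenos, a partner of Vcp in the ER membrane, had log2 fold changes of 1.35 ± 0.29 and 1.32 ± 0.29 (edgeR adjusted p = 0.00337 and 0.00600), in the direction opposite to Herpud1. Among 14 genes of the translocon and signal peptidase, 4 rose in tdT+ dCAMs (Sec61a1, Spcs2, Ssr3 and Ssr2), with log2 fold changes of 0.82 to 1.50, and 0 passed in tdT- dCAMs in edgeR, with 3 at an unadjusted p under 0.05, 2 in DESeq2 and 1 to 3 in limma-voom. In CTL mice all 14 had a lower estimate in tdT+ than in tdT- dCAMs, with a median of -0.40. Over all genes tested, 7503 of 16632 estimates were positive in this comparison. Only Sec61a1 passed (-0.84 ± 0.24, edgeR adjusted p = 0.0488). Without the tdT- CTL library of mouse 179, 0 of the 14 passed, and without that of mouse 174 it was 2. With limma-voom quality weights or with mouse as a fixed term in edgeR 0 passed, against 2 in DESeq2 and 1 with the replicate block. The interaction was positive for all 14 and passed for 0, with 2 at an unadjusted p under 0.05 and 0 in DESeq2 and limma-voom. Over all genes tested it was positive for 8439 of 16632. The interaction subtracts the difference between populations in CTL mice, so that its signs are not independent of those in CTL mice. Of the 6 sensors and processing proteases (Ern1, Eif2ak3, Atf6, Atf6b, Mbtps1 and Mbtps2), 0 passed in either population and 0 had an unadjusted p under 0.05, while limma-voom called 1 in tdT- dCAMs with the replicate block and 1 in tdT+ dCAMs with quality weights.

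In the integrated stress response list of 10 genes, 2 rose and 2 fell in tdT- dCAMs, and 1 rose and 2 fell in tdT+ dCAMs. Atf3, an early stress factor, fell in both, with log2 fold changes of -4.58 and -4.39 (edgeR adjusted p = 6.76e-09 and 8.49e-09), from a mean of 1437 and 1524 CPM in CTL to 59.9 and 72.9 CPM in LPS mice. Ppp1r15a (GADD34), the inducible phosphatase subunit for eIF2α, fell as well, with -1.87 and -1.17 (edgeR adjusted p = 3.98e-05 and 0.00495), and Ppp1r15b, its constitutive counterpart, rose by 3.91 ± 0.79 in tdT- dCAMs (edgeR adjusted p = 0.00186). In tdT+ dCAMs Ppp1r15b did not pass but was at 76.8 to 176 CPM in CTL and 355 to 571 CPM in LPS libraries, without overlap. Chac1, an enzyme that degrades glutathione, had 0 counts in all 10 CTL libraries and 0 to 63 in LPS libraries, with 0 in 1 LPS library of each population, and was the gene that rose past the adjusted p in both. Over the 61 genes of these lists, from folding factors to the stress response, 7 rose and 3 fell in each population. Of all genes 12.5% (tdT-) and 6.61% (tdT+) passed in either direction, and 16.7% and 11.8% of those whose mean log2 CPM reached 4. Without regard to a test, 25 of the 61 genes were higher and 3 lower without overlap in tdT+ dCAMs. There 10.6% of all genes, and 18.5% of those whose mean log2 CPM reached 4, were higher. In tdT- dCAMs 9 of the 61 were higher and 3 lower without overlap, against 9.32% and 3.31% of all genes. Estimates were positive for 45 genes in tdT- and 46 in tdT+ dCAMs, with medians of 0.32 and 0.52. Over all genes tested they were positive for 8396 and 8343 of 16632. Among genes whose mean log2 CPM reached 4 they were positive for 3660 and 4072 of 7295. With the replicate block 9 folding factors, 4 degradation genes and 8 stress response genes passed in tdT- dCAMs, and 3, 1 and 6 in tdT+ dCAMs, while over all genes the number called with both thresholds went from 1907 to 4523 and from 979 to 1571. In CTL mice Ppp1r15a was lower in tdT+ than in tdT- dCAMs in 5 of 5 mice, with a log2 fold change of -1.06 (edgeR adjusted p = 0.0175).

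Heat shock proteins outside the ER were counted in the same way. Of 14 cytosolic genes, 6 fell and 1 rose in tdT- dCAMs, and 4 fell and 1 rose in tdT+ dCAMs. By the same rule 4.85% of all genes fell and 7.67% rose in tdT- dCAMs, and 2.83% fell and 3.79% rose in tdT+ dCAMs. Among genes whose mean log2 CPM reached 4, 9.24% (tdT-) and 5.91% (tdT+) fell. The Hsp70 genes Hspa1a and Hspa1b, near-identical copies between which reads may be split, fell in both populations, with log2 fold changes of -2.56 and -2.59 for Hspa1a and -3.76 and -3.49 for Hspa1b. Hsp90ab1, the cytosolic relative of Hsp90b1, fell with log2 fold changes of -0.85 and -0.50 (edgeR adjusted p = 0.000116 and 0.0183). Dnajb1, a co-chaperone of Hsp70, fell with -1.62 and -1.42, and Hspa4 rose by 1.40 ± 0.31 and 1.14 ± 0.31. Of 6 mitochondrial chaperones and proteases, Hspa9 rose in tdT- dCAMs (1.80 ± 0.46, edgeR adjusted p = 0.0126), and 0 passed in tdT+ dCAMs, where 1 had an unadjusted p under 0.05, 1 passed in DESeq2 and 2 or 3 passed in limma-voom. In tdT+ dCAMs Hspa9 was at 118 to 209 CPM in CTL and 283 to 321 CPM in LPS libraries, without overlap.

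**Figure D5:**
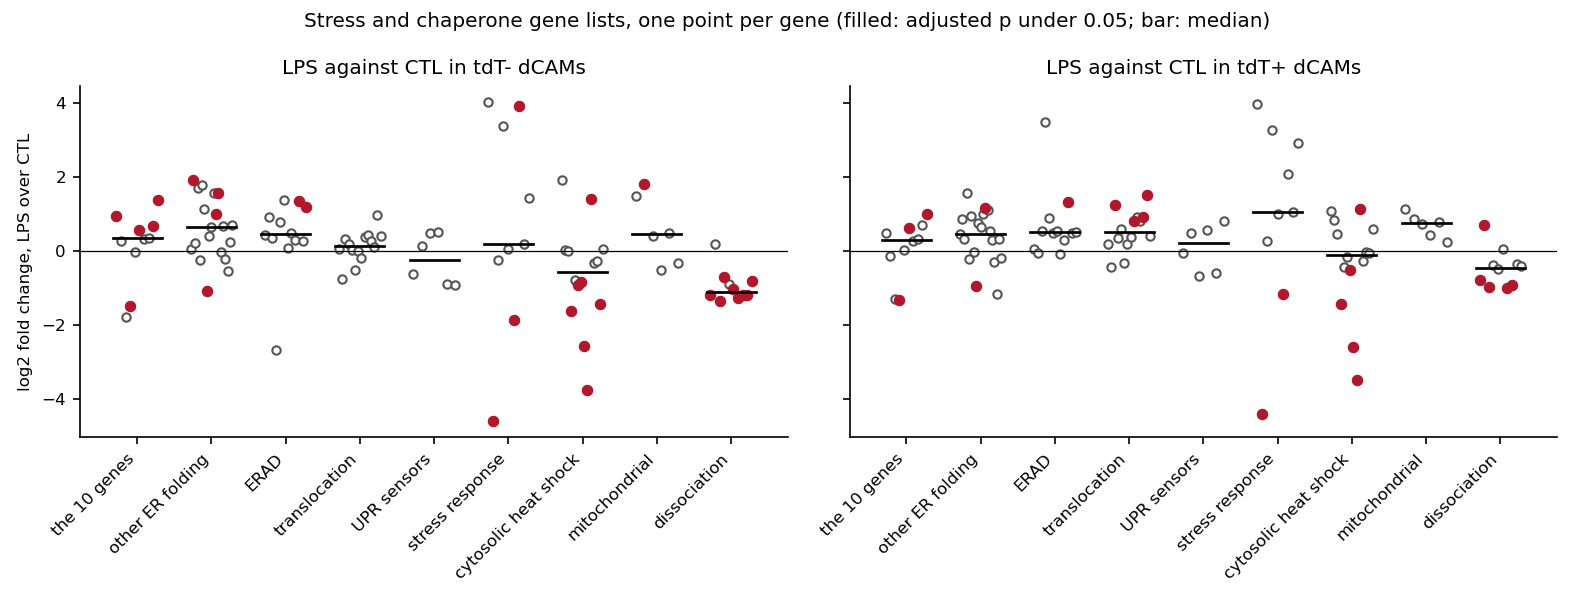
Log2 fold change of LPS over CTL (vertical axis) for each gene of the stress and chaperone lists (horizontal axis), in tdT- (left) and tdT+ (right) dCAMs. Points are genes, filled where the adjusted p was under 0.05, and bars are medians, with Chac1 left out because it had 0 counts in CTL libraries. Filled points of the ER folding, degradation and translocation lists lie mostly above 0 and those of the cytosolic and dissociation lists mostly below.

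Other measures moved with treatment as well. A list of 10 immediate early genes that respond to tissue dissociation had 8 members lower after LPS in tdT- dCAMs, and 4 lower and 1 higher (Dusp1) in tdT+ dCAMs. By the adjusted p alone, 9.24% (tdT-) and 5.91% (tdT+) of the genes whose mean log2 CPM reached 4 were lower. In the same set 7.46% and 5.92% were higher. Egr1 had log2 fold changes of -1.35 ± 0.17 and -0.97 ± 0.17 (edgeR adjusted p = 1.27e-05 and 0.000455), and Jun -1.28 ± 0.19 and -0.99 ± 0.19. The summed level was 31437 to 35710 CPM in tdT- CTL and 16633 to 22865 CPM in tdT- LPS libraries, and 17812 to 36592 CPM in tdT+ CTL and 20016 to 26652 CPM in tdT+ LPS libraries, with overlap in the latter population. Atf3, Ppp1r15a, Hspa1a, Hspa1b and Dnajb1 are known to respond to the same handling. The part of this list in the changes of Ddit3 and Herpud1 was not tested. The 10 macrophage genes summed to 14203 to 25640 CPM in tdT- CTL and 10855 to 15326 CPM in tdT- LPS libraries, and to 28262 to 33016 CPM and 12760 to 17878 CPM in tdT+ libraries, without overlap in the latter population. Of these genes 5 fell and 2 rose in tdT- dCAMs, and 6 fell and 2 rose in tdT+ dCAMs. Their part in the changes of the ER genes was not tested. Depth differed between treatments too. With all libraries thinned to the smallest total, the log2 fold changes of Herpud1, Xbp1, Hspa5 and Calr in tdT- dCAMs and of Herpud1, Xbp1 and Hspa5 in tdT+ dCAMs still passed the adjusted p, and Pdia6 did not (edgeR adjusted p = 0.0537 and 0.0679).

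Markers of other cells were followed because secretory cells hold much ER. Of 10 plasma and B cell genes, 7 were tested, and 2 rose and 2 fell past the adjusted p in tdT- dCAMs and 0 rose and 1 fell in tdT+ dCAMs. The summed level was 628 to 1342 CPM in CTL libraries, most of it Ighm, and 20.9 to 104 CPM in LPS libraries. Sdc1 (syndecan-1), a marker of plasma cells, moved against this sum, with 0 counts in all 5 tdT- CTL libraries and 10.4 to 78.2 CPM in tdT- LPS libraries, and at most 20.2 CPM in tdT+ libraries. Mzb1 and Igkc had 0 counts in all 20 libraries. The 8 markers of neutrophils, led by Csf3r and S100a8, summed to 46.9 to 195 CPM in CTL and 304 to 1004 CPM in LPS libraries, and of the 6 tested 2 rose in tdT- dCAMs (S100a8 and Csf3r) and 1 in tdT+ dCAMs (S100a8). S100a9, which codes for the partner of S100a8, was at most 15.1 CPM in any CTL and 2.17 CPM in any LPS library, and Ly6g at most 1.54 CPM in any library. Retnlg, another of these markers, was at 0 to 171 CPM in tdT- CTL and 23.2 to 642 CPM in tdT- LPS libraries. In tdT+ dCAMs Retnlg was at most 7.13 CPM in CTL and 1.02 CPM in LPS libraries. The 6 of dendritic cells, led by Cd209a and Ccr7, summed to 618 to 3329 CPM in tdT- CTL libraries and 262 to 638 CPM in tdT- LPS libraries, against 11.4 to 77.1 CPM in tdT+ dCAMs. In tdT- dCAMs the leading markers went in opposite directions, Cd209a from a mean of 1228 to 26.8 CPM (edgeR adjusted p = 0.000119) and Ccr7, a marker of migratory dendritic cells, from 46.3 to 401 CPM (edgeR adjusted p = 0.156). T and NK cell, endothelial and mast cell markers summed to at most 131 CPM in any library. Without the library that was rich in fibroblast markers, 5 of the 10 genes passed the adjusted p in tdT- and 4 in tdT+ dCAMs, and without the tdT- CTL library of mouse 174 it was 5 and 5. The part of these cells in the changes of the 10 genes was not tested.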

How the data were processed

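Bulk RNA was sequenced from 20 libraries of sorted dCAMs, with 5 libraries in each of 4 groups taken from the labels. The authors deposited 1 table of raw counts per gene and library. Per the processing notes, bcl2fastq 2.20, STAR 2.7.11a, featureCounts 2.0.6 and DESeq2 1.46.0 were used, and the genome build of the table is not given in the sources used here. The kit amplified cDNA by PCR and no molecular identifiers were counted, so that depth covers counting error only. Genes with a total of at least 10 counts over the libraries were kept (16632), scaled by TMM and fitted in 1 model of the 4 groups with the quasi-likelihood test of edgeR 4.0.16 (R 4.3.3), with Benjamini-Hochberg adjustment over all genes for each of 5 contrasts. The common biological coefficient of variation was 1.13. A gene was called at a log2 fold change beyond 1 in either direction with an adjusted p below 0.05, and the adjusted p alone was also counted. Values are mean ± SD, or log2 fold change ± SE. DESeq2 1.42.0, limma-voom (limma 3.58.1), other scalings and filters, thinning and leaving out mice were tried as alternatives, and the code was tested on simulated data. Libraries of the same mouse were paired by animal, and the correlation of their deviations from the group means was 0.000914 to 0.0333 in CTL and 0.0471 to 0.119 in LPS mice over all genes, and -0.00657 to 0.0472 and 0.231 to 0.320 over genes with a mean log2 CPM of 4 or more, a level that all members reached. The members and lists were chosen with earlier results of these data known. From each wider list, up to 2 genes per direction and contrast with the smallest p among those past the adjusted p were named. Dnajb11, Ssr2, Ssr3, Hspa1b and Dusp1 fell outside that rule or were added after their values were seen.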

Additional observations from a re-analysis of the deposited data

How the results depend on the processing

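Under 24 alternatives (22 for the LPS comparisons) no called value changed its sign. Of the 10 genes, the number past the adjusted p in tdT- dCAMs went from 5 to 2 with limma-voom quality weights or with only the compared libraries fitted, which left Xbp1 and Herpud1. In tdT+ dCAMs it went from 3 to 6 under the same alternatives and to 5 without the tdT- CTL library of mouse 174, and the number that also passed the fold threshold went from 1 to 3 with quality weights and to 2 with the replicate block, with only the compared libraries, or without that library. Calls over all genes moved as well, from 1907 in tdT- dCAMs to 1906 with quality weights and 891 with only the compared libraries, and from 979 in tdT+ dCAMs to 3155, 2262 and, without that library, 1212. Between populations they went from 712 to 7 in CTL mice and from 5 to 39 in LPS mice with only the compared libraries, and to 3 and 85 with mouse as a fixed term within the treatment. In further fits 1 mouse at a time was left out, or 1 of the tdT- CTL libraries that stood apart. In tdT- dCAMs this gave 2 to 3 called genes and 3 to 6 past the adjusted p. In tdT+ dCAMs it gave 1 to 3 and 1 to 5, with the 5 reached only without the tdT- CTL library of mouse 174. Between populations in CTL mice it gave 0 to 1 past the adjusted p (Canx, without mouse 178). It gave 0 in the other comparisons. The lowest counts came without LPS mouse 56 or 60 (tdT-, 3 genes) and without LPS mouse 54 (tdT+, 1 gene). The replicate block in limma-voom, which also changed the tool from edgeR, used an estimated correlation of 0.0413 within mice. With it Hspa5 was lost in both populations, Pdia6 was gained in tdT+ dCAMs, and no other call on the adjusted p changed among the 10 genes. Leaving out CTL mouse 175 brought Pdia3 in tdT- dCAMs past the adjusted p, and DESeq2 or the stricter filter brought Ddit3 past it. The causes were not tested.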
